A study of Mus musculus with 19 samples.

Results

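The secretory pathway and its stress response were described through 35 genes, chosen by name for their roles as endoplasmic reticulum (ER) chaperones, sensors and factors of the unfolded protein response, or parts of the route from the ER to the Golgi apparatus. All 35 of 35 were found among the 24972 genes listed, and all 35 passed the filter on low values. Gene expression had been measured by sequencing total RNA from mouse plantaris tendon, a tendon of the hindlimb, in 19 libraries of 5 groups. Of the stimulated groups, Scx- and Scx+ mice had received tamoxifen and 14 days of a growth stimulus (n = 4 each), and further Scx- and Scx+ mice tamoxifen and 7 days of it (n = 4 each). The control group was Scx+ mice with no tamoxifen and no stimulus listed (n = 3). Scx encodes scleraxis, a transcription factor of the tendon lineage. The alleles, the Cre driver, strain, sex and age, the kind of stimulus, and whether each library came from 1 animal are not given in the sources used here, so p-values measure the spread between these samples, which may be technical. Every stimulated group also received tamoxifen, so in the comparisons with controls stimulus and tamoxifen cannot be told apart, and for Scx- the genotype differs as well.

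Proteins destined for secretion, collagens of the tendon matrix among them, enter the ER through the translocon, are folded there by chaperones and disulfide isomerases, and leave in vesicles coated with COPII proteins. When folding capacity falls short, the unfolded protein response acts through the sensors IRE1 (gene Ern1), PERK (gene Eif2ak3) and ATF6: IRE1 splices the Xbp1 transcript, PERK favours translation of ATF4, and ATF6 is cleaved in the Golgi to release a transcription factor. CREB3L1 (also called OASIS) and CREB3L2 are membrane-bound relatives of ATF6, and CREB3L1 is known for activating type I collagen in mouse bone. Values per gene show neither Xbp1 splicing nor the cleavage of ATF6, CREB3L1 or CREB3L2, so the activity of these factors was not measured.

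The known binding sites of these factors lie close to the start of many of the genes. Of the 35 genes, 28 had at least 1 promoter window in the RefSeq table used (29 windows in all; build GRCm38.p6, 250 bases before to 50 after a gene's start). Atf6, Creb3l1, Kdelr2, Lman1, Manf, Sec61a1 and Tmed2 had none. Each window was searched on both strands for 4 motifs, and 11 of the 28 genes held at least 1. The ER stress element (ERSE; CCAAT, 9 bases of any kind, then CCACG), bound by ATF6 with NF-Y, stood in 6 genes (Hspa5, Hsp90b1, Calr, Canx, Pdia6 and Dnajc3) and in 0.119% of all 32851 windows. The related element (ERSE-II; ATTGG, any base, then CCACG) stood in Herpud1 and Dnajb11 and in 0.0365% of all windows. The element TGACGTGG (UPRE), a site of XBP1 and ATF6, stood in Kdelr3, Sec24d and Sec23a and in 0.676% of all windows. The ATF4 element TGATGCAA (CARE) stood in Herpud1 and in 0.895% of all windows. ERSE, ERSE-II and UPRE share the letters CCACG, and no matched stretch in these genes overlapped another. A looser form of ERSE that ends in CCAC was also searched and is not counted among the 4 motifs. It stood in 9 genes and in 0.365% of all windows. The matches in Dnajb11 and Sec23a lie after the RefSeq start, from bases 8 and 7, and the others lie before it. A match is a description of the letters and not a measured site.

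Upstream stretches of 6 genes are shown because their motifs and their values below set the stress-response genes side by side: Hspa5, Hsp90b1 and Pdia6 carry ERSE, Herpud1 carries ERSE-II and CARE, and Kdelr3 and Sec24d carry UPRE. Each line holds the 250 bases before the gene's start, 5′ to 3′ on the gene's own strand, with the motif letters in capitals. The start is RefSeq's, and the GENCODE starts of Hspa5, Hsp90b1, Pdia6 and Sec24d lie within these stretches. The positions on GRCm38 are chr2:34771840-34772089 (plus strand) for Hspa5, chr10:86705445-86705694 (minus strand) for Hsp90b1, chr12:17266339-17266588 (plus strand) for Pdia6, chr8:94386179-94386428 (plus strand) for Herpud1, chr15:79516158-79516407 (plus strand) for Kdelr3 and chr3:123267246-123267495 (plus strand) for Sec24d.
Hspa5: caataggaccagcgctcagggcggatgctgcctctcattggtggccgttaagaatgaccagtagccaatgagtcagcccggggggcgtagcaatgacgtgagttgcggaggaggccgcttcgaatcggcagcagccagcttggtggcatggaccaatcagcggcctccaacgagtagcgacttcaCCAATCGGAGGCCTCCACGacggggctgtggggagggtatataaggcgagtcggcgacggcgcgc
Hsp90b1: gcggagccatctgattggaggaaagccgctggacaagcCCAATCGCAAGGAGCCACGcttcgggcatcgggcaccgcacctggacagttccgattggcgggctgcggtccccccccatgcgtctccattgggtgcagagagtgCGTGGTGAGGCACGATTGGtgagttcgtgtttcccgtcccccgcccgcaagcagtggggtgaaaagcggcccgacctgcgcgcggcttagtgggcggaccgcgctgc
Pdia6: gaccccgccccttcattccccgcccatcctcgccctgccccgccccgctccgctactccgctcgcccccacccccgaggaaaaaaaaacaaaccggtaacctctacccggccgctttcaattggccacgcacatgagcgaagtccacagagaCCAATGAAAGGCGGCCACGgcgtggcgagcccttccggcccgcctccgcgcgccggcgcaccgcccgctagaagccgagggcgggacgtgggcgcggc
Herpud1: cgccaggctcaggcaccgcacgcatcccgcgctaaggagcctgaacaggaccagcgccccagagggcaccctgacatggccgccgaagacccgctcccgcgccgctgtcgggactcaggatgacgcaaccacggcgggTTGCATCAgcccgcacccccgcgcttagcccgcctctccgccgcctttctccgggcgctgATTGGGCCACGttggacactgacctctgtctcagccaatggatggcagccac
Kdelr3: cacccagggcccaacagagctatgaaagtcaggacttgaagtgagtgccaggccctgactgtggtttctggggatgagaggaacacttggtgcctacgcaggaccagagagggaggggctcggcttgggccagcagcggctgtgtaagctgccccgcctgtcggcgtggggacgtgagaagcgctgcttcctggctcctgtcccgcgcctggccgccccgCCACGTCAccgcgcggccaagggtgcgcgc
Sec24d: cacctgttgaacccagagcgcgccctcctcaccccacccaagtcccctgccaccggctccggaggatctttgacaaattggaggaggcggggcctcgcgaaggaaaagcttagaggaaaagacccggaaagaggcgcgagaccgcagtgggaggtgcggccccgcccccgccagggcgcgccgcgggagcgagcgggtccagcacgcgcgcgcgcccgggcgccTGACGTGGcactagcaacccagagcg

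Values below are the deposited scaled signal, brought to 1 scale across libraries, in arbitrary units, and fold changes are on the log2 scale after adding 2 units. Libraries differed in makeup beside the genotype and the stimulus. Scx itself was at 5.8, 2.5, 4.9 and 1.7 units in Scx- libraries, against 5092.6, 3747.1, 5044.1 and 2095.7 in Scx+ libraries at day 14, and at 17.2, 9, 8.9 and 5.7 against 8044.2, 5608.8, 3293 and 2772.5 at day 7; controls held 592.6, 442.4 and 318.7. Deposited values summed to 36.6 to 48.5 M (mega) units in stimulated libraries and 67.8 to 79.8 M units in controls. The 22 skeletal muscle fibre markers together took 4.18% to 18.7% of a library's signal in the day 14 Scx- group, 0.274% to 8.68% in the day 14 Scx+ group, 0.371% to 6.10% in the day 7 Scx- group, 0.0335% to 2.11% in the day 7 Scx+ group and 23.7% to 28.5% in controls. Of them, 4 rose and 1 fell in Scx- at day 14 against controls, and 3 rose and 12 fell in Scx+ at day 14; at day 7, 3 rose and 11 fell in Scx- and 3 rose and 15 fell in Scx+. The muscle marker Myl3 was listed at 0 in 1 Scx+ library at day 7. Tendon fibroblast markers took 1.39% to 8.45%, 6.87% to 10.3%, 4.38% to 6.91%, 6.56% to 10.2% and, in controls, 0.376% to 1.15% in the same order of groups, with none at 0 in any library. Macrophage markers took 0.102% to 0.296% and 0.167% to 0.279% at day 14 (Scx- and Scx+), 0.345% to 0.845% and 0.255% to 0.418% at day 7, and 0.0357% to 0.0855% in controls; of these, Marco was at 0 in 1 Scx- library at day 14 and 2 control libraries. All 10 adipocyte markers fell against controls in each stimulated group. In such bulk samples, fewer cells of a type and less RNA per cell cannot be told apart.

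A pair of Scx- libraries at day 14, replicates 1 and 2, stood apart from replicates 3 and 4. Muscle markers took 16.2% and 18.7% of their signal, against 4.40% and 4.18% in replicates 3 and 4. Fibrillar collagen genes took 3.34% and 1.90%, against 12.7% and 8.24%. Calls of the 35 genes that changed without that pair are given with the results.

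Together the 35 genes took 0.537% ± 0.130 of all signal in Scx- and 0.740% ± 0.122 in Scx+ at day 14, 0.781% ± 0.0741 in Scx- and 0.862% ± 0.0897 in Scx+ at day 7, and 0.303% ± 0.0257 in controls (SD; n = 4 per stimulated group and 3 controls). Levels of different genes were compared per kilobase of merged exon. In Scx- at day 14 the highest were the cargo receptor Tmed2, at 7560.3 ± 1144 units per kilobase, and the lectin chaperone Calr, at 6926 ± 363, while Sar1b, the small GTPase that starts COPII coat assembly, stood at 5585 ± 3441 (SD, n = 4). Their order in that group was within the spread between libraries. In the other groups Calr had the highest mean, with 9583 ± 940.2 in Scx+ at day 14, 9043 ± 934 in Scx- at day 7 and 9972 ± 1707 in Scx+ at day 7, but Tmed2 and Pdia3 followed within the spread between libraries (8495 ± 1426 and 8206 ± 1710.3 in Scx+ at day 14). In controls the highest level was that of Sar1b, at 15981 ± 1905 (SD, n = 3), and Calr followed with 5147 ± 404. The gene of the sensor IRE1, Ern1, had the lowest level per kilobase of the 35 in every group, with means of 87.1, 63.9, 72.0 and 66.4 in the stimulated groups in the same order, and 70.8 in controls.

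Folding, translocation and retrieval genes made up most of the rises in stimulated tendon against controls, and Sar1b, Herpud1 and Mia3 were among the falls. In Scx- at day 14, 17 of the 35 rose and 3 fell, against a background of 25.5% of all 16625 tested genes rising and 18.3% falling at an adjusted p under 0.05 by limma. In Scx+ at day 14, 24 rose and 4 fell (background 30.9% and 25.0%). In Scx- at day 7, 23 rose and 5 fell (background 32.3% and 25.9%). In Scx+ at day 7, 25 rose and 5 fell (background 33.8% and 27.5%). The median log2 fold change of the 35 was 0.34 in Scx- and 0.68 in Scx+ at day 14, 0.77 in Scx- and 0.89 in Scx+ at day 7; over all tested genes it was 0.12, 0.15, 0.14 and 0.18 in the same order. The rises against falls depended on the scale. With library totals in place of medians of ratios they were 25 and 1 in Scx- at day 14, 27 and 1 in Scx+ at day 14, 29 and 2 in Scx- at day 7, and 28 and 2 in Scx+ at day 7, while the median of all tested genes shifted to 0.58, 0.73, 0.81 and 0.83. On the deposited scale 7 rose and 7 fell in Scx- at day 14, and the median of all tested genes shifted to -0.20; Calr, Canx, Pdia4, Pdia6, Dnajc3, Sdf2l1, Manf, Sec61b and Tmed2 no longer passed there. Without replicates 1 and 2 of Scx- at day 14, 18 rose and 5 fell in that group. The calls that changed against controls were those of Hsp90b1 (0.74; adjusted p = 0.0144), Sar1a (0.44; 0.0309), Atf4 (-0.62; 0.00485) and Ddit3 (-0.68; 0.0306), which then passed. That of Sec61b (0.83; 0.0526) was lost. In Scx+ at day 7, Ddit3 (-0.50; 0.0433) and Creb3l2 also passed without that pair. The log2 fold change in Scx- at day 14 then was 2.72 for Kdelr3, 2.57 for Creb3l1, 2.44 for Sec24d, 1.28 for Sec61a1, -1.11 for Herpud1 and -2.45 for Sar1b, each past the threshold, and 0.51 for Hspa5 (adjusted p = 0.0531). These 4 comparisons share the 3 control libraries, so their counts are not independent of each other.

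**Figure D1:**
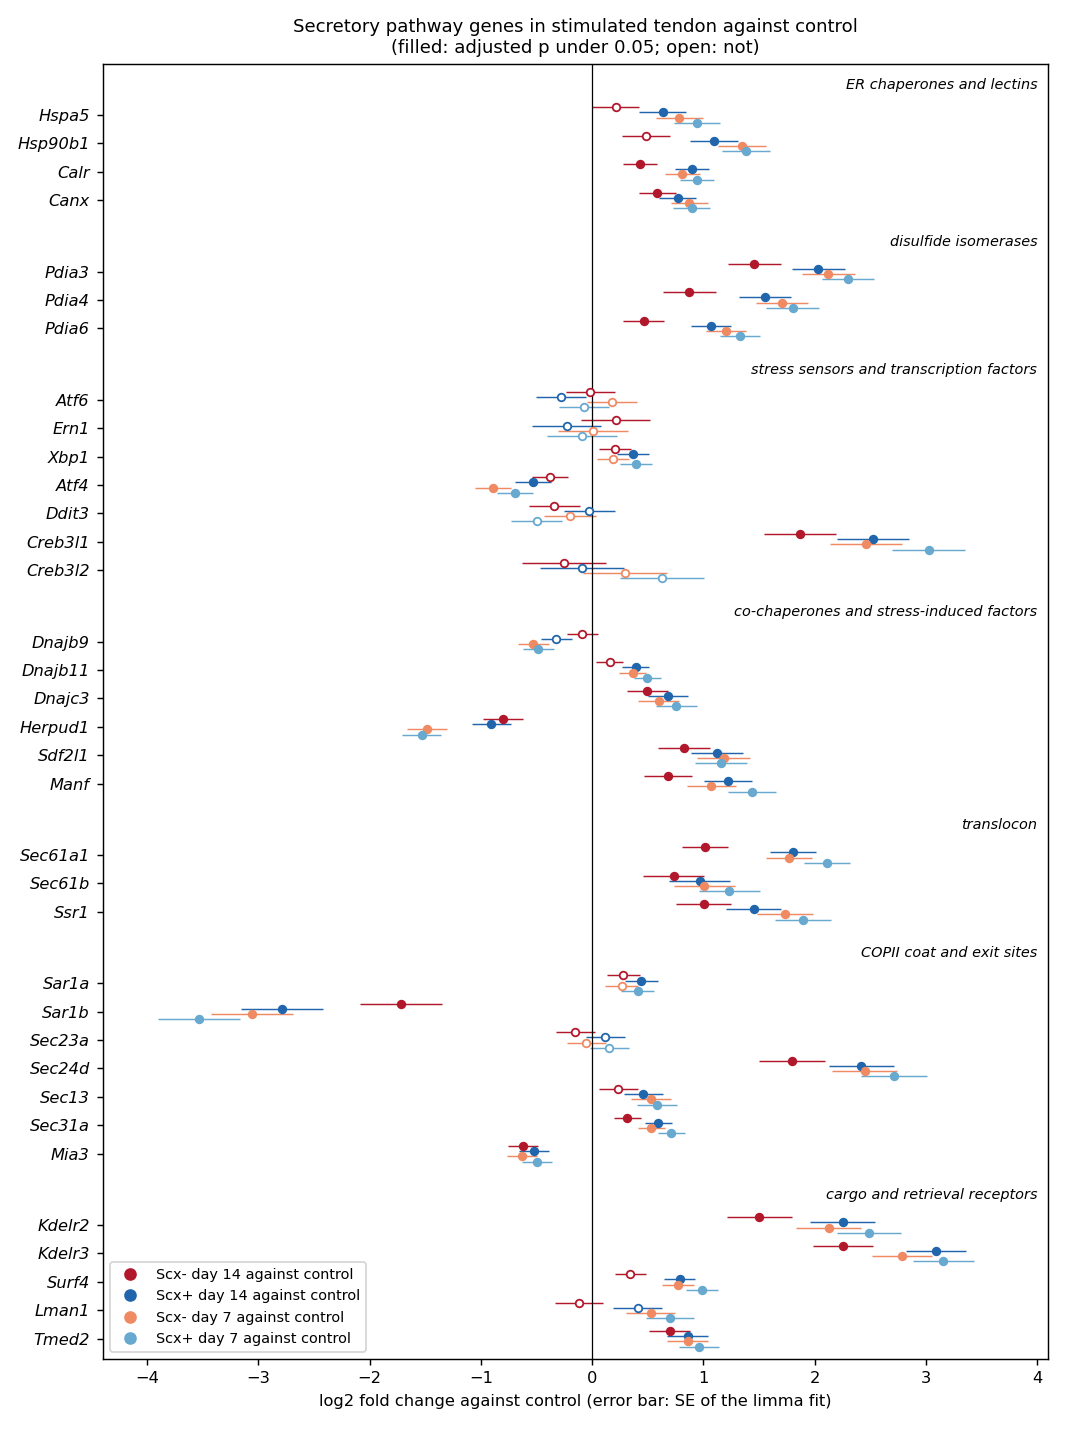
Log2 fold change against controls (horizontal axis, with SE) of the 35 genes, grouped by role down the page, in Scx- and Scx+ at day 14 and at day 7; filled points passed an adjusted p of 0.05. Kdelr3, Creb3l1 and Sec24d lie farthest to the right, and Sar1b lies farthest to the left, in all 4 groups.

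Chaperones and disulfide isomerases form the folding machinery. Of the 4 chaperones and lectins (Hspa5, Hsp90b1, Calr and Canx), 2 rose in Scx- at day 14 and 4 in each of the other groups; all 3 isomerases (Pdia3, Pdia4 and Pdia6) rose in each group. Pdia3, the isomerase that works on glycoproteins held by calnexin and calreticulin, had 14329.8, 12450.3, 20741 and 22475 units in Scx- libraries at day 14 and 30228, 29941, 23843 and 19026 in Scx+ libraries at day 14. At day 7 Pdia3 had 24556, 24538, 25144 and 34817 in Scx- libraries and 34461, 34447, 24362 and 29733 in Scx+ libraries, against 8067, 5272 and 5569 in controls. Every stimulated library lay above every control. Its log2 fold change was 1.46 ± 0.24 in Scx- at day 14, 2.03 ± 0.24 in Scx+ at day 14, 2.12 ± 0.24 in Scx- at day 7 and 2.30 ± 0.24 in Scx+ at day 7 (SE; largest adjusted p = 0.000159). Pdia3 was thus 4.88 times its control mean in Scx+ at day 7 and 2.78 times in Scx- at day 14. Pdia4, another isomerase, rose by 0.87 in Scx- at day 14, 1.55 in Scx+ at day 14, 1.70 in Scx- at day 7 and 1.80 in Scx+ at day 7. Pdia6, which also regulates the stress sensors, rose by 0.46 in Scx- at day 14, 1.07 in Scx+ at day 14, 1.21 in Scx- at day 7 and 1.33 in Scx+ at day 7 (largest adjusted p = 0.00679 and 0.0468). The rise of Pdia6 in Scx- at day 14 did not pass with no filter (adjusted p = 0.055), with the replicate number as a block (0.0981), in a fit of those groups alone (0.12) or in 12 of the 19 fits without 1 library. In the authors' deposited table its adjusted p was 0.0843.

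Hspa5 (chr2:34771970-34777547 on GRCm38), whose product BiP is the main ER chaperone of the HSP70 family and the usual readout of the unfolded protein response, had smaller fold changes than the isomerases. It had 15577, 12330.2, 22927 and 19523 units in Scx- libraries at day 14 and 27866, 26318, 17608 and 21471 in Scx+ libraries at day 14. At day 7 Hspa5 had 22692, 26129, 28200.3 and 24898 in Scx- libraries and 31437, 31275, 21409 and 30832 in Scx+ libraries, against 14263, 15151 and 14934 in controls. The Scx- libraries at day 14 overlapped the controls, and the other groups did not. Its log2 fold change was 0.21 ± 0.21 (SE; adjusted p = 0.43) in Scx- at day 14, which missed the threshold, 0.63 ± 0.21 (SE; adjusted p = 0.0166) in Scx+ at day 14, 0.78 ± 0.21 (SE; adjusted p = 0.00431) in Scx- at day 7 and 0.94 ± 0.21 (SE; adjusted p = 0.000947) in Scx+ at day 7.

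Hsp90b1, the ER member of the HSP90 family (GRP94), had 12668, 10206, 16973 and 15855 units in Scx- libraries at day 14 and 26042, 26102, 15719.6 and 17428 in Scx+ libraries at day 14. At day 7 Hsp90b1 had 21156, 22786, 25724 and 30231 in Scx- libraries and 24787, 29608, 21127 and 26902 in Scx+ libraries, against 10930.0, 8951 and 9473 in controls. Replicate 2 of Scx- at day 14 lay within the control range, and every other stimulated library was above it. The log2 fold change was 0.49 ± 0.22 (SE; adjusted p = 0.077) in Scx- at day 14 and 1.09 ± 0.22 (SE; adjusted p = 0.000435) in Scx+ at day 14, and 1.34 ± 0.22 (SE; adjusted p = 5.79e-05) in Scx- and 1.38 ± 0.22 (SE; adjusted p = 3.85e-05) in Scx+ at day 7. The day 14 value in Scx- passed with the mean muscle marker level of each library as a covariate (0.51; adjusted p = 0.0314), with library totals as the scale (0.96; 0.0055) and without replicates 1 and 2 of that group. A pseudogene on the opposite strand overlaps 10.3% of its exon bases, and whether the libraries kept the strand is not given in the sources used here. The lectins that hold glycoproteins during folding rose in each group: Calr by 0.43 in Scx- at day 14, 0.89 in Scx+ at day 14, 0.81 in Scx- at day 7 and 0.94 in Scx+ at day 7, and Canx by 0.59 in Scx- at day 14, 0.77 in Scx+ at day 14, 0.87 in Scx- at day 7 and 0.89 in Scx+ at day 7 (largest adjusted p = 0.0319 and 0.00961). In Scx- at day 14 Calr did not pass by limma with the replicate number as a block (adjusted p = 0.0723). It also missed in a fit of those groups alone (0.16) and in 4 of the 19 fits without 1 library. Canx in that group missed in the fit of those groups alone (0.0773).

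The 7 stress sensors and transcription factors did not move as a block. Of them, 1 rose and 0 fell in Scx- at day 14, 2 rose and 1 fell in Scx+ at day 14, 1 rose and 1 fell in Scx- at day 7, and 2 rose and 1 fell in Scx+ at day 7. Creb3l1 accounted for a rise in each group and Xbp1 for the second rise in each Scx+ group, and the fall was that of Atf4. Creb3l1 (chr2:91982328-92024502 on GRCm38) had 1588, 1395, 4622 and 3463 units in Scx- libraries at day 14 and 4304, 3220.2, 3738 and 4214 in Scx+ libraries at day 14. At day 7 Creb3l1 had 3869.5, 4126, 3423 and 3396 in Scx- libraries and 6564, 6425, 4174 and 4985 in Scx+ libraries, against 926, 625 and 515 in controls. All stimulated libraries lay above the controls, with replicates 1 and 2 of Scx- at day 14 the lowest of them. On the log2 scale the fold change of Creb3l1 was 1.87 ± 0.32 in Scx- at day 14, 2.52 ± 0.32 in Scx+ at day 14, 2.46 ± 0.32 in Scx- at day 7 and 3.02 ± 0.32 in Scx+ at day 7 (SE; largest adjusted p = 0.000267). Creb3l1 was 8.04 times the control mean in Scx+ at day 7. Creb3l2 differed by -0.26 in Scx- at day 14, -0.09 in Scx+ at day 14, 0.29 in Scx- at day 7 and 0.63 in Scx+ at day 7 and did not pass by limma with all groups fitted together (smallest adjusted p = 0.16). In Scx+ at day 7 it passed in the authors' deposited table (0.63; adjusted p = 0.00128), in a fit of those groups alone (adjusted p = 0.00793), with library totals as the scale (1.30; 0.0108) and without replicates 1 and 2 of Scx- at day 14 (0.0356).

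Xbp1, the IRE1 target, had 6418, 7349.7, 8322 and 7397 units in Scx- libraries at day 14 and 8937, 7737, 7848 and 8395 in Scx+ libraries at day 14. At day 7 Xbp1 had 7678, 8189, 7029 and 6223 in Scx- libraries and 10024, 8602, 7453 and 7549 in Scx+ libraries, against 5931, 5837 and 7405 in controls. The Scx- groups overlapped the controls at both days, and the Scx+ groups lay just above them. Fold changes of Xbp1 on the log2 scale were 0.21 ± 0.14 in Scx- at day 14 (SE; adjusted p = 0.251), 0.37 ± 0.14 in Scx+ at day 14 (adjusted p = 0.0367), 0.19 ± 0.14 in Scx- at day 7 (adjusted p = 0.269) and 0.39 ± 0.14 in Scx+ at day 7 (adjusted p = 0.025). The rise of Xbp1 in Scx+ at day 14 did not pass by limma on the deposited scale (adjusted p = 0.114) or in a fit of those groups alone (0.0774). It was also lost in 4 of the 19 fits without 1 library, and its adjusted p in the authors' deposited table was 0.0643. The rise in Scx+ at day 7 passed in that table (0.0318) but was lost in 4 of the 19 fits. Neither rise passed with the muscle covariate. Scx- against Scx+, the difference in Xbp1 itself did not pass (adjusted p = 0.567 at day 14 and 0.81 at day 7). No rise past the threshold was found for Ern1, Atf6 or Ddit3. Rises of some further genes of the PERK branch are given below. Ern1 differed by 0.21 in Scx- at day 14, -0.23 in Scx+ at day 14, 0.01 in Scx- at day 7 and -0.09 in Scx+ at day 7, Atf6 by -0.02 in Scx- at day 14, -0.28 in Scx+ at day 14, 0.18 in Scx- at day 7 and -0.07 in Scx+ at day 7 and Ddit3, the pro-apoptotic factor CHOP downstream of ATF4, by -0.34 in Scx- at day 14, -0.02 in Scx+ at day 14, -0.20 in Scx- at day 7 and -0.50 in Scx+ at day 7, with none past the threshold. With library totals as the scale, Atf6 and Ddit3 passed as rises. Atf6 rose at day 7, by 0.88 in Scx- (adjusted p = 0.00114) and 0.60 in Scx+ (0.0142). Ddit3 rose by 0.58 in Scx+ at day 14 (0.0229) and 0.50 in Scx- at day 7 (0.0458). On the deposited scale Ddit3 fell in Scx- at day 14 (-0.68; adjusted p = 0.0222).

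Atf4 moved the other way to Creb3l1. It had 10165, 10763, 6570.5 and 8730.4 units in Scx- libraries at day 14 and 6580.4, 8855, 8357 and 8475 in Scx+ libraries at day 14. At day 7 Atf4 had 6285, 6050.0, 6532 and 6060.4 in Scx- libraries and 7709, 7731, 6928 and 6305 in Scx+ libraries, against 10702, 13056 and 11092 in controls. Control values were above those of every library of Scx+ at both days and of Scx- at day 7, and replicate 2 of Scx- at day 14 reached into the control range. Its log2 fold change was -0.38 ± 0.16 (SE; adjusted p = 0.0651) in Scx- at day 14, -0.53 ± 0.16 (SE; adjusted p = 0.00999) in Scx+ at day 14, -0.89 ± 0.16 (SE; adjusted p = 0.000166) in Scx- at day 7 and -0.70 ± 0.16 (SE; adjusted p = 0.00125) in Scx+ at day 7. With library totals as the scale no fall of Atf4 passed. Its log2 fold change was then 0.10 in Scx- and 0.08 in Scx+ at day 14, and -0.20 and -0.02 at day 7 (smallest adjusted p = 0.235).

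**Figure D2:**
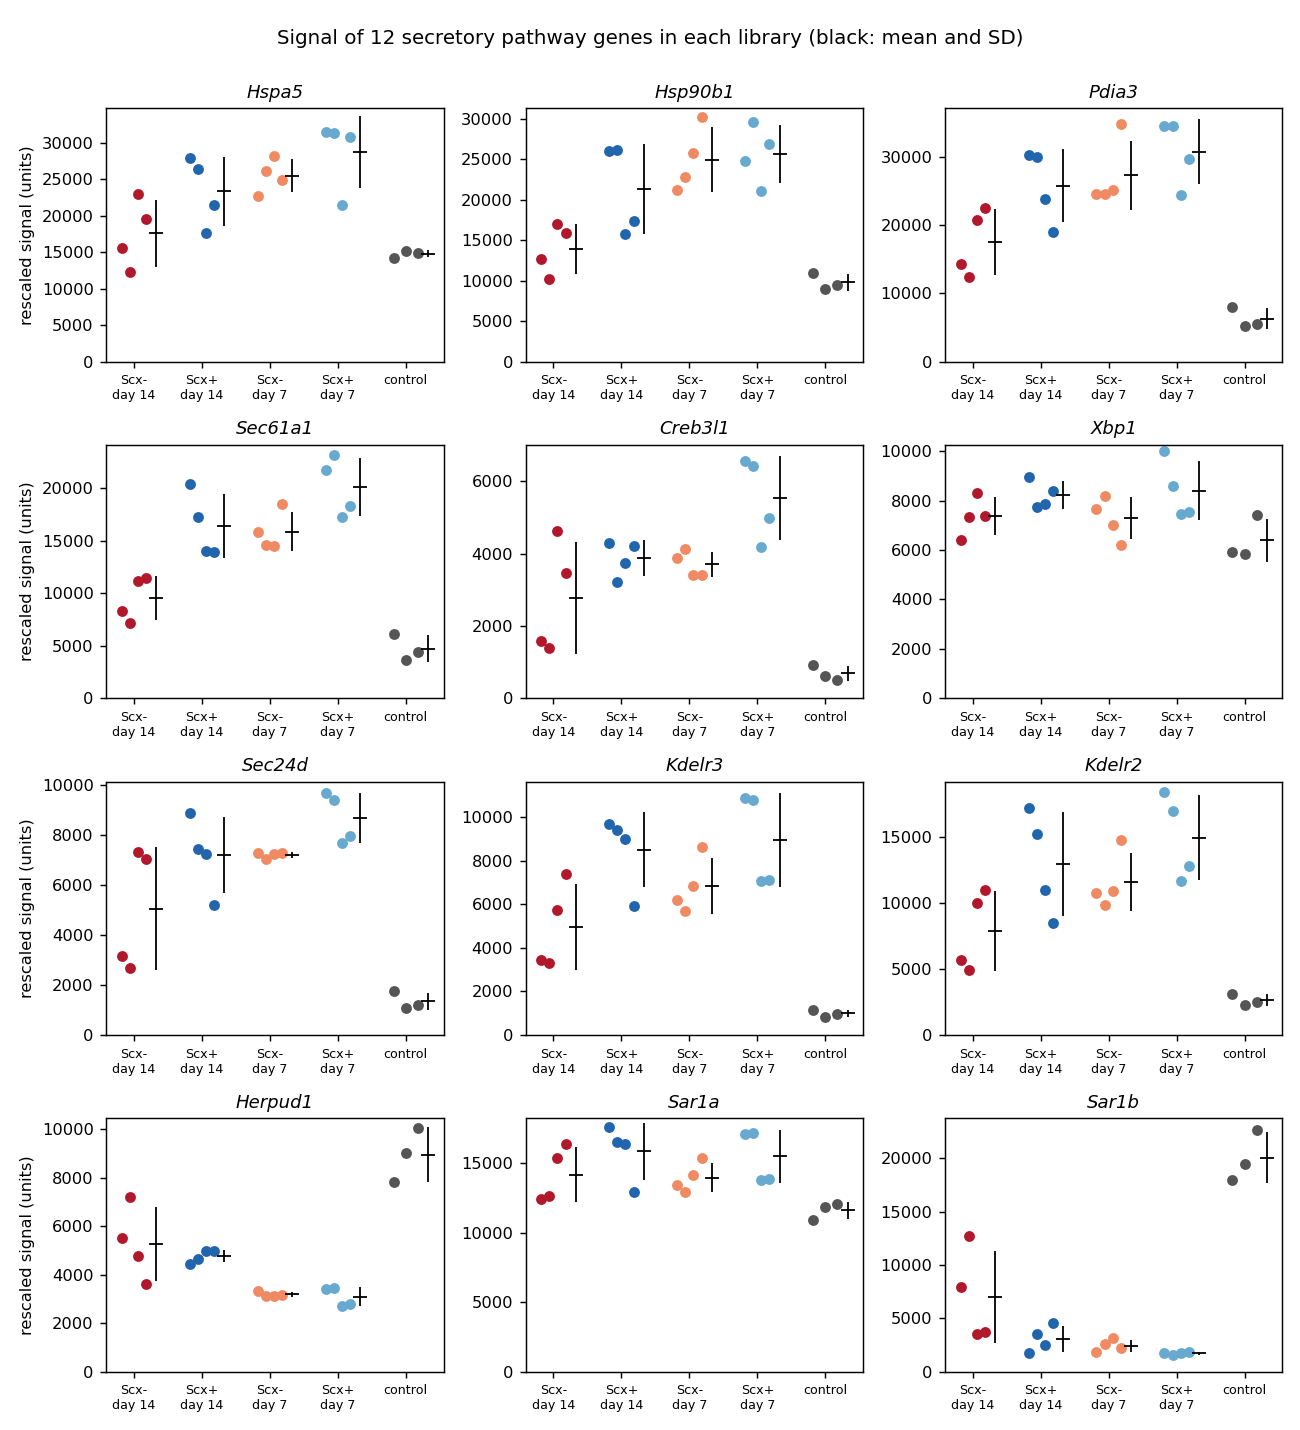
Rescaled value (vertical axis from 0, arbitrary units) of 12 of the genes in each library, with the mean and SD of each group, in the order Scx- and Scx+ at day 14, Scx- and Scx+ at day 7, and controls. Kdelr3, Creb3l1 and Sec24d are lowest in controls and Sar1b and Herpud1 are highest there, and replicates 1 and 2 of Scx- at day 14 lie nearest the controls for Creb3l1 and Sec24d.

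The 6 co-chaperones and stress-induced factors were divided. In Scx- at day 14, 3 rose and 1 fell, in Scx+ at day 14, 4 rose and 1 fell, and at day 7, 4 rose and 2 fell in each genotype. Sdf2l1 (a cofactor of the ER protein ERdj3), Manf (a secreted ER-stress protein) and Dnajc3 (P58IPK, a BiP cochaperone) rose in each group, by 0.82 in Scx- at day 14, 1.12 in Scx+ at day 14, 1.18 in Scx- at day 7 and 1.16 in Scx+ at day 7 for Sdf2l1, by 0.68 in Scx- at day 14, 1.22 in Scx+ at day 14, 1.07 in Scx- at day 7 and 1.44 in Scx+ at day 7 for Manf and by 0.50 in Scx- at day 14, 0.68 in Scx+ at day 14, 0.60 in Scx- at day 7 and 0.76 in Scx+ at day 7 for Dnajc3. In a limma fit of Scx- at day 14 and controls alone, none of these rises passed (adjusted p = 0.0617 for Sdf2l1, 0.0545 for Manf and 0.173 for Dnajc3). That of Dnajc3 also missed with the replicate number as a block (0.0689) and in 4 of the 19 fits without 1 library. Manf missed in 3 of those fits and Sdf2l1 in 1. In the authors' deposited table Manf passed in that group (adjusted p = 0.0239), but Sdf2l1 (0.0541) and Dnajc3 (0.206) did not. Dnajb11, the gene of ERdj3, rose by 0.39 in Scx+ at day 14, 0.36 in Scx- at day 7 and 0.50 in Scx+ at day 7, and differed by 0.16 in Scx- at day 14 (adjusted p = 0.308). Dnajb9, the gene of ERdj4, a co-chaperone of BiP, fell at day 7, by 0.53 ± 0.14 (SE; adjusted p = 0.00373) in Scx- and 0.48 ± 0.14 (SE; adjusted p = 0.00627) in Scx+, and differed by -0.09 in Scx- and -0.32 in Scx+ at day 14 (adjusted p = 0.634 and 0.0583). Its day 7 values in both genotypes and its value in Scx- at day 14 changed sign with library totals as the scale.

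Herpud1 (chr8:94386438-94395377 on GRCm38), a membrane protein of ER-associated degradation that rises under ER stress in cultured cells, fell in each group. It had 5491, 7213, 4765 and 3603 units in Scx- libraries at day 14 and 4449, 4657, 4957 and 4955 in Scx+ libraries at day 14. At day 7 Herpud1 had 3331, 3115, 3104 and 3182 in Scx- libraries and 3416, 3456, 2706 and 2801 in Scx+ libraries, against 7807, 8997 and 10046 in controls. No stimulated library reached the lowest control, and the day 7 libraries were the lowest. Herpud1 had a log2 fold change of -0.80 ± 0.18 in Scx- at day 14, -0.91 ± 0.18 in Scx+ at day 14, -1.48 ± 0.18 in Scx- at day 7 and -1.53 ± 0.18 in Scx+ at day 7 (SE; largest adjusted p = 0.00161). With library totals as the scale, the log2 fold change of Herpud1 was -0.32 in Scx- and -0.30 in Scx+ at day 14 and no longer passed (adjusted p = 0.0542 and 0.0639); both day 7 falls passed. Herpud1 carries ERSE-II in its promoter window, before the start, and Dnajb11, which differed in the other direction, carries it after the start. Herpud1 also carries CARE. Of the 6 genes with ERSE, Calr, Canx, Pdia6 and Dnajc3 rose in each group and Hspa5 and Hsp90b1 in 3 of 4. Of the 3 with UPRE, Kdelr3 and Sec24d rose in each group and Sec23a in none. Among the 17 genes with a window and none of the 4 motifs, Pdia3, Pdia4, Sdf2l1, Sec61b, Ssr1 and Sec31a rose in each group. Sar1b and Mia3 fell in each, and the rest passed in fewer comparisons or none. Of all tested genes, 25.5% to 33.8% rose in a comparison with controls. Whether the motifs go with the rises was not tested.

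All 3 translocon genes rose in each group. Sec61a1, the pore subunit of the channel through which nascent chains enter the ER (chr6:88503579-88518905 on GRCm38), had 8326, 7178, 11189 and 11449 units in Scx- libraries at day 14 and 20362, 17222, 13990.4 and 13925 in Scx+ libraries at day 14. At day 7 Sec61a1 had 15834, 14565, 14513 and 18459 in Scx- libraries and 21708, 23112, 17236 and 18307 in Scx+ libraries, against 6141, 3651 and 4407 in controls. Each stimulated library was above the highest control, and the Scx- libraries at day 14 were the lowest of the stimulated ones. Its log2 fold change was 1.02 ± 0.21 in Scx- at day 14, 1.81 ± 0.21 in Scx+ at day 14, 1.77 ± 0.21 in Scx- at day 7 and 2.11 ± 0.21 in Scx+ at day 7 (SE; largest adjusted p = 0.000954). An antisense gene overlaps 8.16% of its exon bases. Sec61b, a small subunit of the same channel, rose by 0.73 in Scx- at day 14, 0.97 in Scx+ at day 14, 1.01 in Scx- at day 7 and 1.23 in Scx+ at day 7, and Ssr1, a subunit of the translocon-associated protein complex, rose by 1.0 in Scx- at day 14, 1.45 in Scx+ at day 14, 1.73 in Scx- at day 7 and 1.89 in Scx+ at day 7 (largest adjusted p = 0.0383 and 0.00388). In Scx- at day 14 Sec61b did not pass by limma with the replicate number as a block (adjusted p = 0.068). It also missed in 5 of the 19 fits without 1 library.

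The COPII coat showed rises and falls among its own subunits. Of its 7 genes, 2 rose and 2 fell in Scx- at day 14, 4 rose and 2 fell in Scx+ at day 14, 3 rose and 2 fell in Scx- at day 7, and 4 rose and 2 fell in Scx+ at day 7. Sec24d, an inner-coat subunit that selects cargo and whose loss in zebrafish disturbs collagen export, had 3161, 2687, 7316 and 7054 units in Scx- libraries at day 14 and 8885, 7425, 7223 and 5187 in Scx+ libraries at day 14. At day 7 Sec24d had 7285, 7024, 7241 and 7260.1 in Scx- libraries and 9677, 9410.0, 7666 and 7946 in Scx+ libraries, against 1749, 1100.5 and 1186 in controls. All stimulated libraries were above the controls, and replicates 1 and 2 of Scx- at day 14 held less than any other stimulated library. The log2 fold change of Sec24d (chr3:123267455-123365641) was 1.80 ± 0.29 in Scx- at day 14, 2.42 ± 0.29 in Scx+ at day 14, 2.45 ± 0.29 in Scx- at day 7 and 2.71 ± 0.29 in Scx+ at day 7 (SE; largest adjusted p = 0.000162). Sec31a, of the outer coat, rose by 0.32 in Scx- at day 14, 0.59 in Scx+ at day 14, 0.53 in Scx- at day 7 and 0.71 in Scx+ at day 7 (largest adjusted p = 0.0447), but its value in Scx- at day 14 changed sign on the deposited scale and did not pass in 11 of the 19 fits without 1 library. Sec13, its partner in the outer coat, rose by 0.46 in Scx+ at day 14, 0.53 in Scx- at day 7 and 0.59 in Scx+ at day 7, and differed by 0.24 in Scx- at day 14 (adjusted p = 0.296). The rise of Sec13 in Scx+ at day 14 did not pass on the deposited scale (adjusted p = 0.0935), in a fit of those groups alone (0.0566), with the replicate number as a block (0.0695) or in 6 of the 19 fits without 1 library. Each of those 6 fits left out 1 of the 3 controls or replicate 1, 2 or 3 of that group. None of its 3 rises passed with the muscle covariate (smallest adjusted p = 0.0554). The inner-coat gene Sec23a differed by -0.15 in Scx- at day 14, 0.12 in Scx+ at day 14, -0.05 in Scx- at day 7 and 0.15 in Scx+ at day 7 and passed in none; an antisense gene overlaps 8.90% of its exon bases.

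Sar1b and Mia3 were the COPII genes of the 35 that fell. Mia3, the gene of TANGO1, which loads large collagens into COPII carriers, had 6550.3, 6810.4, 7036 and 5156 units in Scx- libraries at day 14 and 7331, 6221, 6056 and 7615 in Scx+ libraries at day 14. At day 7 Mia3 had 6422, 6453, 6743 and 5657 in Scx- libraries and 6705, 7181, 6760.5 and 7047 in Scx+ libraries, against 8851, 11128 and 9377 in controls. Every stimulated library was below every control. For Mia3 the log2 fold change was -0.62 ± 0.14 in Scx- at day 14, -0.52 ± 0.14 in Scx+ at day 14, -0.63 ± 0.14 in Scx- at day 7 and -0.49 ± 0.14 in Scx+ at day 7 (SE; largest adjusted p = 0.00446). With library totals as the scale no fall of Mia3 passed: the value was -0.14 in Scx- at day 14 (adjusted p = 0.351) and had changed sign in the other 3 comparisons.

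Sar1b (chr11:51763687-51791925) had the largest fall of the 35 genes in each of the 4 comparisons. It had 7976, 12726, 3583 and 3753 units in Scx- libraries at day 14 and 1752, 3508, 2494 and 4564 in Scx+ libraries at day 14. At day 7 Sar1b had 1825, 2596, 3119.5 and 2224 in Scx- libraries and 1795, 1553, 1755 and 1804 in Scx+ libraries, against 18022, 19458 and 22689.9 in controls. The highest stimulated library, replicate 2 of Scx- at day 14, was below the lowest control. For Sar1b the log2 fold change was -1.72 ± 0.37 in Scx- at day 14, -2.79 ± 0.37 in Scx+ at day 14, -3.06 ± 0.37 in Scx- at day 7 and -3.53 ± 0.37 in Scx+ at day 7 (SE; largest adjusted p = 0.00137). Its paralogue Sar1a, which carries out the same step, had 12405, 12636, 15356 and 16367 units in Scx- libraries at day 14 and 17587, 16544, 16384 and 12931 in Scx+ libraries at day 14. At day 7 Sar1a had 13425, 12938, 14196 and 15349.7 in Scx- libraries and 17149, 17198, 13811 and 13873 in Scx+ libraries, against 10935, 11826 and 12065 in controls. Sar1a rose by 0.44 ± 0.15 (SE; adjusted p = 0.0183) in Scx+ at day 14 and 0.41 ± 0.15 (SE; adjusted p = 0.0241) in Scx+ at day 7, and differed by 0.28 in Scx- at day 14 and 0.27 in Scx- at day 7 (adjusted p = 0.136 and 0.134). Per kilobase, Sar1b lay below Sar1a in Scx+ at day 7, at 1376 ± 93.9 against 4146 ± 514 units, and exceeded it in controls, at 15981 ± 1905 against 3104 ± 159. How reads shared by these paralogues were assigned is not given in the sources used here.

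Sar1b moved with the share of muscle transcripts. Replicates 1 and 2 of Scx- at day 14, with muscle markers at 16.2% and 18.7% of signal, held 7976 and 12726 units of Sar1b, and replicates 3 and 4, at 4.40% and 4.18%, held 3583 and 3753. Controls, at 23.7% to 28.5%, held the most. Sar1a ran the other way, lowest in the controls and next lowest in replicates 1 and 2 of Scx- at day 14. With the mean muscle level of each library as a covariate, the log2 fold change of Sar1b was -1.76 in Scx- and -2.49 in Scx+ at day 14, and -2.69 in Scx- and -2.78 in Scx+ at day 7, each still past the threshold. That of Herpud1 was -0.81, -0.88, -1.45 and -1.47 in the same order, and Creb3l1 (1.90, 2.30, 2.19 and 2.47) and Kdelr3 (2.29, 2.85, 2.48 and 2.53) also stayed past it. Other calls against controls were lost with the covariate. They were Xbp1 (0.33) and Sec13 (0.36) in Scx+ at day 14 and Sec13 (0.40) and Lman1 (0.35) in Scx- at day 7. In Scx+ at day 7 they were Xbp1 (0.30), Dnajb9 (-0.44), Dnajc3 (0.48), Sar1a (0.13), Sec13 (0.33) and Lman1 (0.34). Their adjusted p ran between 0.0545 (Dnajb9) and 0.523 (Sar1a). Hsp90b1, Sar1a (0.30), Surf4 (0.36) and Atf4 (-0.39) passed with it in Scx- at day 14. Every control had a larger muscle share than every stimulated library, so in these comparisons muscle share and group cannot be told apart fully.

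**Figure D3:**
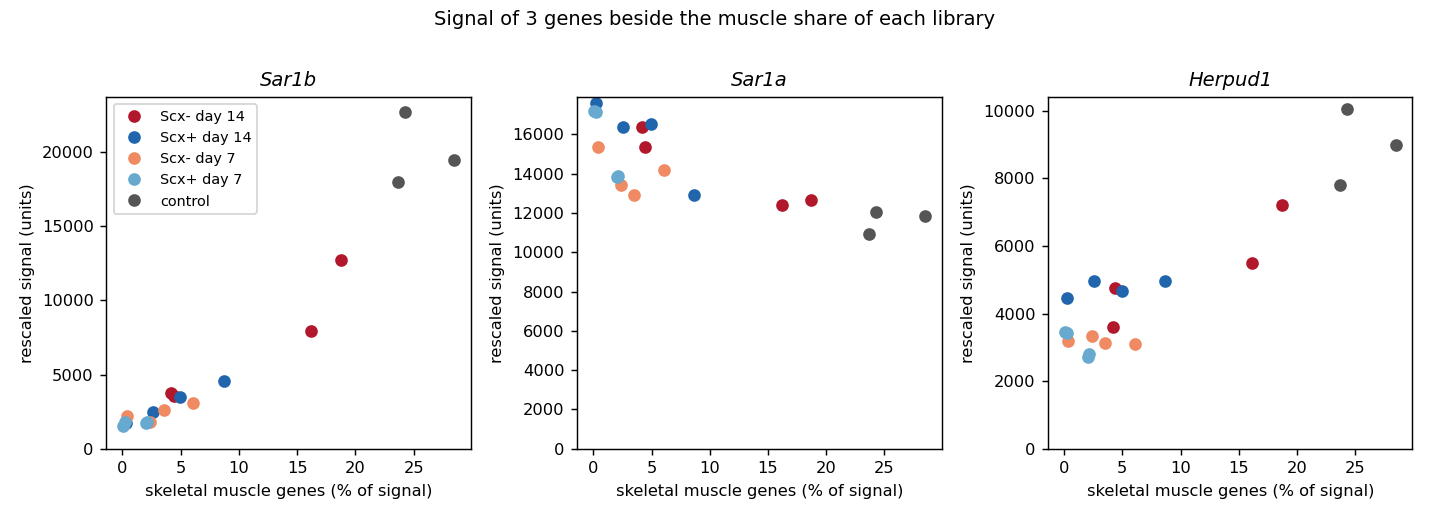
Rescaled values (vertical axes, arbitrary units) of Sar1b, Sar1a and Herpud1 in each library against the share of signal taken by the 22 skeletal muscle markers (horizontal axis, percent). Sar1b is highest in the 3 controls, followed by replicates 2 and 1 of Scx- at day 14, and Sar1a is lowest in those same 5 libraries.

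The largest rise of the 35 genes in each comparison with controls was that of Kdelr3, one of the cargo and retrieval receptors. Of the 5 genes, 3 rose in Scx- at day 14, 4 in Scx+ at day 14 and 5 in each genotype at day 7, and none fell. Kdelr3 (chr15:79516411-79527739), a KDEL receptor that returns escaped ER chaperones from the Golgi, had 3423, 3300.4, 5735 and 7391 units in Scx- libraries at day 14 and 9663, 9402, 9012 and 5932 in Scx+ libraries at day 14. At day 7 Kdelr3 had 6194, 5709, 6816 and 8636 in Scx- libraries and 10853, 10779, 7059 and 7101 in Scx+ libraries, against 1161, 841 and 964 in controls. The lowest stimulated library was above the highest control. The log2 fold change was 2.25 ± 0.27 in Scx- at day 14, 3.09 ± 0.27 in Scx+ at day 14, 2.78 ± 0.27 in Scx- at day 7 and 3.16 ± 0.27 in Scx+ at day 7 (SE; largest adjusted p = 9.92e-06), so that Kdelr3 was 9.05 times its control mean in Scx+ at day 7 and 5.02 times in Scx- at day 14. Kdelr2, which has the same role, had 5688, 4894, 10011 and 10975 units in Scx- libraries at day 14 and 17171, 15258, 10975 and 8466 in Scx+ libraries at day 14. At day 7 Kdelr2 had 10752, 9872, 10925 and 14789.5 in Scx- libraries and 18379, 16986, 11634 and 12842 in Scx+ libraries, against 3145, 2269.6 and 2529 in controls. It too separated completely from the controls, with a log2 fold change of 1.50 ± 0.29 in Scx- at day 14, 2.25 ± 0.29 in Scx+ at day 14, 2.12 ± 0.29 in Scx- at day 7 and 2.49 ± 0.29 in Scx+ at day 7 (SE; largest adjusted p = 0.00061). Tmed2, a p24 cargo receptor, rose by 0.70 in Scx- at day 14, 0.86 in Scx+ at day 14, 0.86 in Scx- at day 7 and 0.96 in Scx+ at day 7. Surf4, a receptor for soluble cargo, rose by 0.79 in Scx+ at day 14, 0.77 in Scx- at day 7 and 0.99 in Scx+ at day 7 and differed by 0.34 in Scx- at day 14 (adjusted p = 0.0588). Lman1 (ERGIC-53), a lectin receptor for glycoproteins, rose at day 7, by 0.53 in Scx- and 0.70 in Scx+, and differed by -0.12 in Scx- and 0.41 in Scx+ at day 14 (adjusted p = 0.682 and 0.119). The day 7 rise of Lman1 in Scx- did not pass on the deposited scale (adjusted p = 0.0903), with no filter (0.0577), with the replicate number as a block (0.0687) or in 13 of the 19 fits without 1 library. Neither day 7 rise of Lman1 passed with the muscle covariate (0.146 in Scx- and 0.258 in Scx+).

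In the Scx- mice, day 14 against day 7, the chaperone Hsp90b1, the isomerases Pdia4 and Pdia6 and the translocon gene Sec61a1 fell, and Sar1b and Herpud1 rose. These were 4 falls and 2 rises among the 35 genes, against backgrounds of 3.86% of all tested genes falling and 1.40% rising. In the authors' deposited table, 6 fell and 3 rose at an adjusted p under 0.05, where 5.86% of its genes fell and 3.18% rose. Sec61a1 had 8326, 7178, 11189 and 11449 at day 14, against 15834, 14565, 14513 and 18459 at day 7, and Pdia6 had 5535, 5005, 6723 and 7436 at day 14, against 8829, 9499, 10521 and 12357 at day 7. Both genes were lower in every day 14 library than in any day 7 library, with log2 differences of -0.75 ± 0.19 (SE; adjusted p = 0.0287) for Sec61a1 and -0.74 ± 0.17 (SE; adjusted p = 0.0147) for Pdia6. Hsp90b1 fell by 0.86 ± 0.20 (SE; adjusted p = 0.0183) and Pdia4 by 0.83 ± 0.22 (SE; adjusted p = 0.0343), and neither overlapped between the days. Sar1b rose by 1.34 ± 0.34 (SE; adjusted p = 0.0276) and Herpud1 by 0.68 ± 0.16 (SE; adjusted p = 0.0205), with 5491, 7213, 4765 and 3603 at day 14, against 3331, 3115, 3104 and 3182 at day 7 for Herpud1. Genes of the 35 that did not pass also separated fully between the days. Surf4, Lman1, Calr, Canx, Pdia3, Ssr1 and Sec31a were lower in every day 14 library, and Atf4 and Dnajb9 were higher. The share of all tested genes that separate between these days is not given here. The median of the 35 was -0.29, with 27 negative.

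These 6 calls depended on single libraries. Without replicates 1 and 2 of Scx- at day 14 none of the 35 passed; Sec61a1 then differed by -0.48 (adjusted p = 0.296), Sar1b by 0.61 (0.32) and Herpud1 by 0.38 (0.222). Without single libraries the count ran between 0 and 9. It was 0 without replicate 1 of Scx- at day 14 or replicate 4 of Scx- at day 7, 1 without replicate 2 of Scx- at day 14, 2 and 3 without replicates 2 and 1 of Scx- at day 7, and 9 without replicate 3 or replicate 4 of Scx- at day 14. With the muscle covariate 1 gene passed, Pdia6. By scale, 1 rose and 18 fell on the deposited scale and 2 rose and 10 fell with library totals. The muscle markers took 4.18% to 18.7% at day 14, against 0.371% to 6.10% at day 7, and macrophage markers 0.102% to 0.296% against 0.345% to 0.845%; the part of macrophages in the result was not tested.

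In the Scx+ mice no gene of the 35 passed between day 14 and day 7 by limma, where the background was 0.0301% of all tested genes; 3 had an unadjusted p under 0.05, as did 10.6% of all tested genes. In the authors' deposited table Herpud1 (adjusted p = 0.000999) and Sar1b (adjusted p = 0.0449) were higher at day 14, as were 1.91% of its genes, and 0 of the 35 were lower, where 3.08% of its genes were. The limma values of these were 0.63 ± 0.16 (SE; adjusted p = 0.175) for Herpud1, with 4449, 4657, 4957 and 4955 units at day 14, against 3416, 3456, 2706 and 2801 at day 7, and 0.75 ± 0.34 (SE; adjusted p = 0.448) for Sar1b. Herpud1 did not overlap between the days, and Sar1b did. The share of all tested genes that do not overlap between these days is not given here. The median log2 difference of the 35 was -0.12, with 29 negative.

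Between Scx- and Scx+ mice, none of the 35 genes passed the threshold at either day. At day 14, Scx- against Scx+, the count of 0 by limma stood against a background of 0.517% of all tested genes, and none passed in the authors' deposited table, where 1.11% of all its genes did. An unadjusted p under 0.05 was found for 17 of the 35, where 14.6% of all tested genes had one. The values leaned one way: 29 of 35 were negative, where 48.4% of all tested genes were, and the median was -0.28, against 0.02 over all tested genes. The smallest adjusted p was that of Sec61a1. It had 8326, 7178, 11189 and 11449 in Scx- libraries, against 20362, 17222, 13990.4 and 13925 in Scx+ libraries, which do not overlap, and the log2 difference was -0.79 ± 0.19 (SE; adjusted p = 0.0897).

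Calr had 18641, 19580.1, 20642 and 20925 in Scx- libraries, against 29174, 26500.5, 24347 and 30379.8 in Scx+ libraries at day 14, with no overlap and a log2 difference of -0.46 ± 0.14 (SE; adjusted p = 0.191). Pdia6, Dnajb11, Sec31a and Surf4 also had every Scx- library below every Scx+ library, with differences of -0.60, -0.24, -0.28 and -0.44 (smallest adjusted p of these = 0.144). That made 6 of the 35 with every Scx- library below every Scx+ library, where 2.94% of all tested genes were. Dnajb9 had 1853, 1852, 1785 and 1609.7 in Scx- libraries, against 1474, 1569, 1509 and 1470.0 in Scx+ libraries, so that every Scx- library was above every Scx+ library, as in 1.87% of all tested genes, with a log2 difference of 0.24 ± 0.13 (SE; adjusted p = 0.401). For Kdelr3 the difference was -0.84 ± 0.25, for Creb3l1 -0.65 ± 0.30 and for Hspa5 -0.42 ± 0.19, with overlapping groups in all 3.

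The lean at day 14 was strongest in the pair of Scx- libraries rich in muscle transcripts. Measured as the deviation from the Scx+ mean at day 14, the median over the 35 genes was -0.45 and -0.48 in replicates 1 and 2 and -0.12 and -0.17 in replicates 3 and 4. The number of genes below that mean was 28, 27, 22 and 24. Single Scx+ libraries had medians of 0.21, 0.14, -0.16 and -0.11, so replicates 3 and 4 of Scx- lay near the low end of the Scx+ spread. Replicates 1 and 2 were the lowest pair of Scx- libraries for 23 of the 35 genes. Without them, none of the 35 passed, 27 were negative and the median was -0.17. With the muscle covariate, 28 were negative, with a median of -0.20. On the deposited scale, where the median of all tested genes shifted to -0.22, 13 of the 35 fell in Scx- against Scx+ at day 14.

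**Figure D4:**
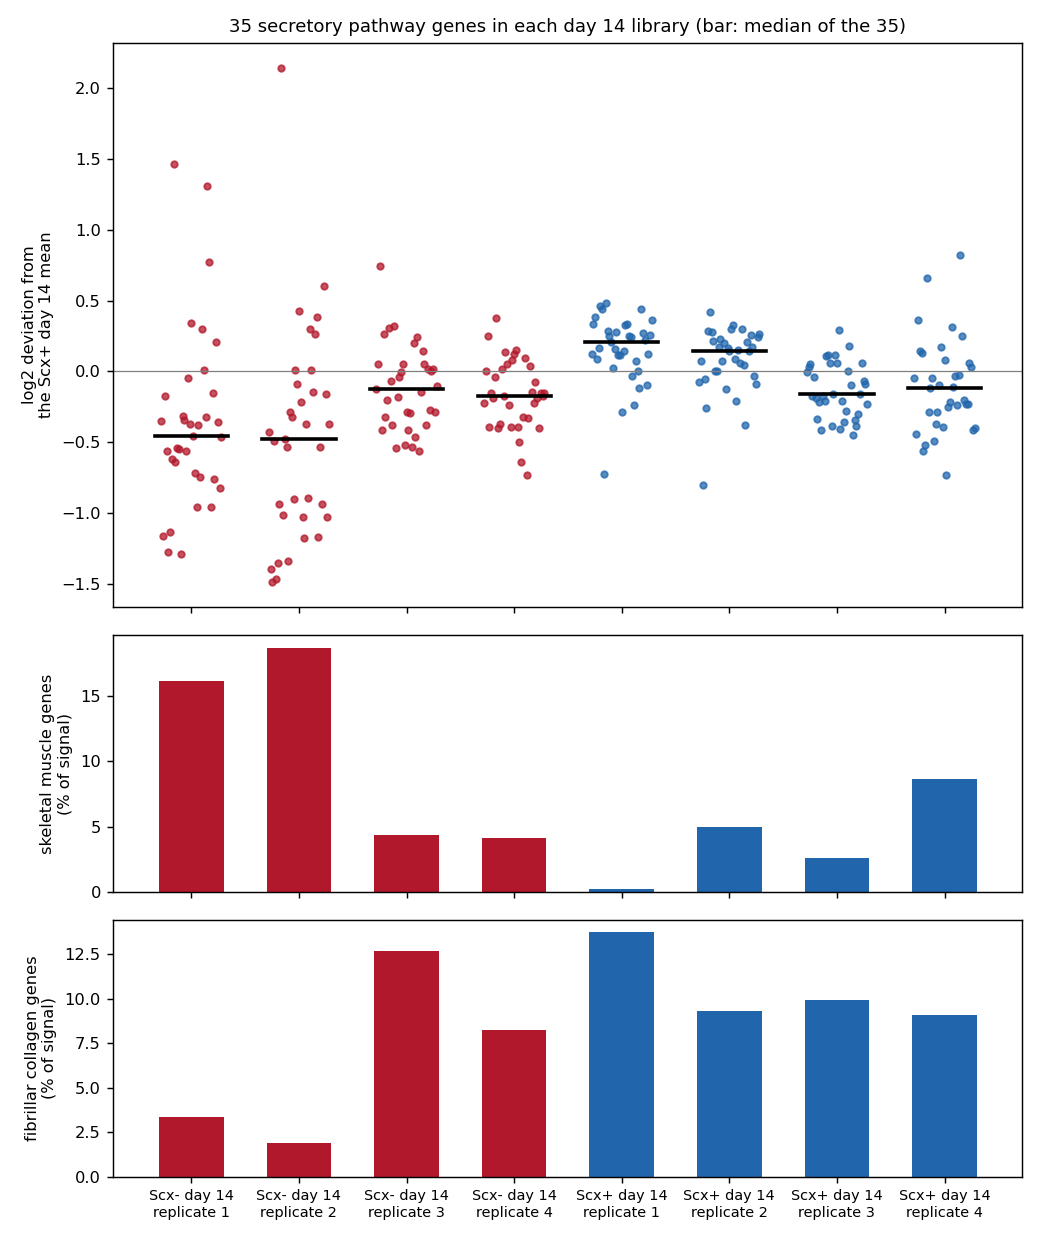
Log2 deviation of each of the 35 genes from its Scx+ mean at day 14 (vertical axis; 1 point per gene) in each of the 8 day 14 libraries, Scx- left of Scx+, above bars of the percent of signal taken by muscle markers and by fibrillar collagen genes. Replicates 1 and 2 of Scx- have the lowest medians (-0.45 and -0.48), the largest muscle shares and the smallest collagen shares.

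At day 7, Scx- against Scx+, none of the 35 passed by limma and none had an unadjusted p under 0.05 (backgrounds 0.770% and 7.26% of all tested genes). The authors' deposited table called 1, Creb3l1, lower in Scx- by a log2 fold change of -0.64 ± 0.18 (adjusted p = 0.0132); 2.34% of its genes were lower. The limma value for Creb3l1 was -0.56 ± 0.30 (SE; adjusted p = 0.774), from 3869.5, 4126, 3423 and 3396 units in Scx- libraries, against 6564, 6425, 4174 and 4985 in Scx+ libraries. The groups did not overlap, and the gap between the highest Scx- and the lowest Scx+ library was small beside the spread within Scx+. Sec24d also had every Scx- library below every Scx+ library (at most 7284.8 units against at least 7665.6). Ddit3 (at least 646.0 against at most 627.5) and Sar1b (at least 1825.2 against at most 1803.8) had every Scx- library above. The share of all tested genes that separate at day 7 is not given here. Over the 35 genes 29 were negative, where 47.3% of all tested genes were, with a median of -0.16, against 0.02 over all tested genes. With the muscle covariate 18 were negative and the median was -0.01. The genotype effect at day 14 less that at day 7 passed in none of the 35 by limma (background 0.0180% of all tested genes; none had an unadjusted p under 0.05, where 4.34% of all tested genes did), with a median of -0.16, or -0.01 without replicates 1 and 2 of Scx- at day 14.

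The rest of the pathway was read from 78 further genes. Against controls, 31 rose and 8 fell in Scx- at day 14, 43 rose and 10 fell in Scx+ at day 14, 43 rose and 10 fell in Scx- at day 7, and 48 rose and 11 fell in Scx+ at day 7, with medians of 0.34, 0.58, 0.56 and 0.65. Of all tested genes, 25.5%, 30.9%, 32.3% and 33.8% rose and 18.3%, 25.0%, 25.9% and 27.5% fell in the same order. These shares are also the background of the smaller lists that follow. ER folding genes (12 in the list) had 7, 9, 9 and 9 rises in the same order of groups and 1 fall each. The list of cargo receptors, COPI and Golgi entry genes (20) had 12, 15, 15 and 16 rises and 3 falls each. The other COPII genes (8) had no rises and 2, 3, 3 and 3 falls. Of the ER-associated degradation genes (10), 3, 5, 5 and 6 rose and 1 fell each, and of the 16 translocation and glycosylation genes 5, 10, 9 and 13 rose and 1 fell each. The PERK and amino acid response (8 genes) had 4, 3, 4 and 3 rises and 0, 1, 1 and 2 falls, and the 4 genes of the ATF6 proteases and CREB3 relatives had 0, 1, 1 and 1 rises and no falls.

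Single genes among these went further than most of the 35. Txndc5, an ER protein disulfide isomerase, rose by 2.08 in Scx- at day 14, 2.69 in Scx+ at day 14, 2.86 in Scx- at day 7 and 3.01 in Scx+ at day 7. Arf4, a small GTPase of the Golgi, rose by 1.92 in Scx- at day 14, 2.37 in Scx+ at day 14, 2.39 in Scx- at day 7 and 2.47 in Scx+ at day 7. Sec31b, the paralogue of Sec31a, fell by 2.51 in Scx+ at day 14, 3.15 in Scx- at day 7 and 3.86 in Scx+ at day 7, and differed by -1.40 in Scx- at day 14 (adjusted p = 0.0766). Chac1, a glutathione-degrading enzyme induced through ATF4, fell by 2.01, 3.19 and 3.49 in the same 3 groups. In Scx- mice Chac1 was higher at day 14 than at day 7, by 2.48 ± 0.61 (SE; adjusted p = 0.0251), with 263 to 2725 units at day 14, against 111 to 214 at day 7. Trib3, a pseudokinase of the same ATF4 response, rose by 1.92 in Scx- at day 14 against controls (adjusted p = 0.0444), and Atf3 rose by 1.75 (adjusted p = 0.00438). Derl3, a degradation factor at low level, rose by 2.16 in Scx+ at day 14, where libraries held 7.26 to 35.4 units, against 0 to 9.85 in controls. Between the days in Scx- mice, 6 of the 78 fell, where 3.86% of all tested genes did. Among them were Pdia5 (-0.96), the oligosaccharyltransferase subunit Stt3a (-0.87) and Edem1 (-0.84), a lectin of ER-associated degradation. Between genotypes none of the 78 passed by limma (backgrounds 0.517% of all tested genes at day 14 and 0.770% at day 7). An unadjusted p under 0.05 was found for 18 at day 14 and 1 at day 7, where 14.6% and 7.26% of all tested genes had one.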

How the data were processed

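The 35 genes and all gene lists were chosen with earlier results of these data known, so no list is independent evidence of its direction. Total RNA of 19 plantaris tendon libraries had been sequenced. FastQC, STAR and DESeq2 are named, per the submitters' processing notes, without versions or roles, and so is the build mm10. The authors deposited a scaled signal per gene and library that is not whole. Of the low values of a library, 36.8% to 67.5% lie within 0.1 of a whole multiple of its step, so reads could not be recovered, the depth is unknown, and no counting interval is given. The authors also deposited a table for 15951 genes with log2 fold changes and p-values (adjusted, by a method not given in the sources used here), quoted here only as theirs.

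Signals were rescaled by medians of ratios over 13703 genes above 0 in every library (factors 0.838 to 1.09). Genes entered the test with at least 10 units in at least 3 libraries, which 16625 did. Log2 values, after adding 2, were fitted with limma 3.58.1 in R 4.3.3, with all 5 groups in 1 model, a mean-variance trend and robust moderation. Fold changes on this scale understate changes of low genes. Adjustment was by Benjamini-Hochberg over all tested genes, with 0.05 as the threshold, and "rose" and "fell" are used of genes past it. The model was tested on simulated data. Levels between genes were divided by merged exon length (GENCODE M21, GRCm38). Promoter letters are from RefSeq (GRCm38.p6), searched in Python 3.11.15. Named were all 35 genes, of the 78 other pathway genes those past the threshold with the largest changes (at most 4 a comparison, with Chac1 followed across comparisons), and marker genes. Alternatives were other scales (deposited, library totals, a trimmed mean of M values), pseudocounts of 0.5 and 8, other filters, moderation that is not robust, a replicate block, a fit of the compared groups alone, a muscle covariate, and leaving out libraries.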

Additional observations from a re-analysis of the deposited data

Results flagged for a closer look

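In 7 of 140 groups of 4 libraries, checked over the 35 genes, 1 library lay far from the other 3 by Dixon's test. Chance flags about 1 group in 20, which is the share seen here. Hspa5 was at 21409.3 units in replicate 3 of Scx+ at day 7, against 30831.6 to 31436.7 in the other 3 libraries. Lman1 was at 9081 units in replicate 2 of Scx+ at day 7, against 6484.1 to 6696 in the others. In replicate 4 of Scx- at day 7, Pdia3 was at 34817.3 units, against 24538.3 to 25144.1, and Surf4 at 22780.1 units, against 19790.1 to 20139.1. Sec24d was at 7024.2 units in replicate 2 of Scx- at day 7, against 7241 to 7284.8, so that whole group was tight. Ern1, the gene of the sensor IRE1, was at 1214.2 units in replicate 1 of Scx- at day 14, against 502.5 to 588.9. Sec13 was at 4169.8 units in replicate 4 of Scx+ at day 14, against 5936 to 6140.4.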

How the results depend on the processing

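Of 315 gene results (35 genes in 9 comparisons), pseudocounts of 0.5 and 8 changed none, a trimmed-mean scale and no robust moderation changed 1 each, and no filter and a filter of 1 ppm changed 2 each. A result counted as changed if it crossed the threshold, or if it changed sign and was past the threshold in either setting. Sign changes of results past it in neither setting were not counted. Scale mattered most. On the deposited scale, 13 of the 35 passed in Scx- against Scx+ at day 14 and 19 between day 14 and day 7 in Scx-; with library totals the second count was 12. In Scx- at day 14 against controls, 11 passed in a fit of those groups alone; between the days in Scx-, 0 passed in such a fit, 1 with the muscle covariate and 0 without replicates 1 and 2 of Scx- at day 14. The limma fit of groups alone used the same rescaled values, so its log2 differences are those of the main fit by construction. They were -0.86 for Hsp90b1, 1.34 for Sar1b and 0.68 for Herpud1 (adjusted p = 0.0851, 0.129 and 0.130). Such a fit has fewer libraries and takes the spread of those groups only, and these were not told apart. With the covariate Herpud1 was at 0.65 (adjusted p = 0.0547). The cause of the changes in calls was not tested. Leaving out single libraries gave counts of 14 to 21 in Scx- at day 14 against controls, 24 to 29 in Scx+ at day 14, 25 to 28 in Scx- at day 7, 28 to 31 in Scx+ at day 7, 0 to 9 between days in Scx- and 0 to 1 between genotypes at day 14 (1 without replicate 3 of Scx- at day 14). The sign changes listed next are only those of results past the threshold in either setting. Signs changed with library totals for Atf4 (0.078) and Ddit3 (0.58) in Scx+ at day 14, Mia3 in Scx+ at day 14 (0.084), Scx- at day 7 (0.071) and Scx+ at day 7 (0.18), Dnajb9 in Scx- at day 14 (0.39), Scx- at day 7 (0.17) and Scx+ at day 7 (0.19), Ddit3 (0.50) and Sec23a (0.64) in Scx- at day 7 and Atf6 in Scx+ at day 7 (0.60), all against controls, and on the deposited scale for Sec31a in Scx- at day 14 (-0.022). Taken over all groups, same-numbered libraries did not by median vary together. The correlation of their deviations from group means was -0.43 to 0.35, with median -0.0015, over 36 pairs. Over 108 pairs of other numbers the median was 0.011. No pairing by number was seen, but pairing between particular groups was not tested. With the replicate number as a block, 15, 27, 27 and 30 of the 35 passed against controls (Scx- and Scx+ at day 14, Scx- and Scx+ at day 7), 5 between days in Scx-, and 0 in the other 4 comparisons. Depth is unknown, so what counting error limits could not be stated.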

Other observations

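Within the ER exit machinery, paralogues of 1 subunit differed in direction, in a set of genes chosen after their values were seen. Among the genes of the cargo-selecting subunit SEC24, Sec24d was at 799 ± 391 units per kilobase in Scx- and 1135 ± 240.5 in Scx+ at day 14, 1139 ± 19.01 in Scx- and 1372 ± 161 in Scx+ at day 7, against 213 ± 55.7 in controls (SD; n = 4 and 3 controls). Sec24c was at 627 ± 103, 580.0 ± 74.0, 619 ± 72.0 and 584 ± 59.3 in the same order, against 1131 ± 177 in controls. Sec24d was thus the higher of the pair in each stimulated mean and the lower in controls, although in Scx- at day 14 the gap was within the spread between libraries. Sec24c fell by 0.85, 0.96, 0.86 and 0.95 on the log2 scale (largest adjusted p = 0.000438 by limma). Sec24a differed by -0.10 in Scx- at day 14, -0.24 in Scx+ at day 14, -0.25 in Scx- at day 7 and -0.11 in Scx+ at day 7 and Sec24b by -0.09 in Scx- at day 14, -0.07 in Scx+ at day 14, -0.06 in Scx- at day 7 and 0.01 in Scx+ at day 7, with none past the threshold. Of the KDEL receptors, Kdelr1 rose by 0.46 in Scx- at day 14, 0.79 in Scx+ at day 14, 0.60 in Scx- at day 7 and 0.84 in Scx+ at day 7, less than Kdelr2 or Kdelr3, and was at 3249 ± 338 units per kilobase in Scx- and 4090.1 ± 286 in Scx+ at day 14, 3608 ± 426 in Scx- and 4277 ± 674 in Scx+ at day 7, against 2367 ± 226 in controls. How reads shared by these paralogues were assigned is not given in the sources used here.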
